A study of Mus musculus with 7 samples.

Results

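The genes described here are the enzymes of steroid, xenobiotic and conjugation metabolism in 2 fat depots of the mouse. They were chosen by gene symbol, with earlier results of these data known. The symbols were those of cytochromes P450 (Cyp followed by a digit, without Cyp51), glutathione transferases (Gst and Mgst), UDP-glucuronosyltransferases (Ugt), sulfotransferases (Sult) and aldo-keto reductases (Akr1). Hydroxysteroid dehydrogenases (Hsd11b, Hsd17b and Hsd3b), carboxylesterases (Ces), flavin monooxygenases (Fmo) and epoxide hydrolases (Ephx) were also taken. Pseudogene symbols were left out, and 1 probe per gene was kept. The rule took 76 of the 9294 genes tested. One of the 76, Fmod, is the matrix proteoglycan fibromodulin, which shares only the first letters of its symbol with the monooxygenases, and it was left out (difference -1.25 ± 0.30, paracardial minus intra-abdominal log2 value with its standard error, limma adjusted p = 0.0503, which did not pass the threshold of 0.05). The 75 enzymes are 33 Cyp, 11 Gst, 6 Ugt, 6 Akr1, 4 Sult, 4 Hsd3b, 4 Ces, 2 Hsd17b and 2 Ephx genes, with 1 gene each of Hsd11b, Fmo and Mgst. Total RNA of paracardial fat, the depot beside the heart, was hybridised on 4 Affymetrix arrays and that of intra-abdominal fat on 3 arrays, all from wild-type male mice labelled C57 with no treatment named. The labels state no age, and they call the arrays of a depot biological replicates without naming the animals, so a p-value here reflects only the spread among these arrays, which may be technical. The comparison addresses how tissue labelled as the depot beside the heart differs from tissue labelled as that of the abdomen. The title of the study is about remodeling of the former depot and an alcohol dehydrogenase.

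Cytochromes P450 and flavin monooxygenases insert oxygen into fat-soluble molecules with electrons from NADPH, epoxide hydrolases open the reactive epoxides that result, and transferases attach glutathione, sulfate or glucuronic acid so that the product dissolves in water. The same enzyme families make and remove steroid hormones, bile acids, oxysterols and signalling lipids of arachidonic acid. The liver is the main organ of this chemistry and the kidney has its own set, while adipose tissue stores fat-soluble compounds and converts steroids locally.

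All values are deposited log2 values of 1 probe per gene, and differences are paracardial minus intra-abdominal on that scale, so they are not calibrated folds. Values of single arrays are given in the order of the replicate numbers, 1 to 4 for paracardial and 1 to 3 for intra-abdominal fat. The labels do not say whether arrays of the same number share an animal. A gene was called at a Benjamini-Hochberg adjusted p under 0.05 in limma over all 9294 genes. The highest value on an array, called its ceiling here, was 19.81 to 19.93. The highest ceiling was that of paracardial array 4 and intra-abdominal array 3. These arrays also had the lowest 5th percentile, near 4.0 where the others had 4.38 to 4.44, and they are called the set of 2 arrays below. Adipocyte markers, 10 genes with 7 called lower, had array medians of 6.08, 6.24, 9.44 and 9.70 in paracardial fat and 14.83, 14.68 and 16.20 in intra-abdominal fat. On paracardial arrays 1 and 2 that median lay close to the array median over all probes (6.07 and 6.005). Thymocyte and T cell markers, 7 genes with 4 called higher, ran the other way, with medians from 10.17 to 12.97 on paracardial and from 5.55 to 8.71 on intra-abdominal arrays. On paracardial arrays 1 and 2 these medians were 10.36 and 10.17. Endothelial markers, 3 genes with 2 called lower, had array medians of 5.49, 5.44, 6.77 and 7.35 in paracardial fat and 10.19, 10.15 and 12.79 in intra-abdominal fat. Markers of thymic and other epithelium, 8 genes with 4 called higher, had medians from 8.73 to 9.83 on paracardial and from 5.16 to 7.57 on intra-abdominal arrays. In bulk tissue, fewer cells of a type and less RNA per cell cannot be told apart. Brown adipocyte markers, 4 genes with none called, had a median of 8.81 on paracardial array 4, against 5.09 to 6.37 on the other arrays. Among them Otop1 was highest on intra-abdominal array 3 instead, at 7.0 against 6.36 on paracardial array 4. Markers of adrenal cortex, epididymis and heart muscle were not analysed here. The part of these cell markers in the enzyme differences below was not tested. A gene called lower in paracardial fat is thus lower in the labelled bulk tissue, which says nothing of its level per fat cell.

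Upstream sequence is shown for 8 enzymes. They are 4 neighbouring Gstm genes, Mgst1, Cyp4b1 and Cyp2j6, all called lower, and Cyp2e1, which had the largest difference without passing the test. The called Cyp2d22, Ephx2 and Fmo1 had no promoter in the RefSeq table, and the called Cyp27a1, Gstt1 and Hsd3b7 are not shown. Each line gives the 150 bases before the most upstream RefSeq start site of the gene, 5′ to 3′ on the gene's strand, in build GRCm38.p6. Capitals mark matches, on either strand, to 5 motifs: the antioxidant response element TGACNNNGC, the GC box GGGCGG, the TATA box TATAAA, the C/EBP motif TTGCNNAA and the glucocorticoid receptor motif TGTTCT. No matches overlap in these lines, and the line of Gstm1 holds none.
Gstm1 (chr3:108017974-108018123, - strand): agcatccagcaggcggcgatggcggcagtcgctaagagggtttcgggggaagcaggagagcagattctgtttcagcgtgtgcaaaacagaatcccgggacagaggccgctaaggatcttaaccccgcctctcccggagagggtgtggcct
Gstm3 (chr3:107969175-107969324, - strand): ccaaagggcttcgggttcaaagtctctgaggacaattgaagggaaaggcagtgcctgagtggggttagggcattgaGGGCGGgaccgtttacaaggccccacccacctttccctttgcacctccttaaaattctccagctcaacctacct
Gstm4 (chr3:108044860-108045009, - strand): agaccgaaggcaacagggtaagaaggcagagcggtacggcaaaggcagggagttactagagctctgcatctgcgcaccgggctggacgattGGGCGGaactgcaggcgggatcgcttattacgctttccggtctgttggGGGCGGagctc
Gstm5 (chr3:107895704-107895853, + strand): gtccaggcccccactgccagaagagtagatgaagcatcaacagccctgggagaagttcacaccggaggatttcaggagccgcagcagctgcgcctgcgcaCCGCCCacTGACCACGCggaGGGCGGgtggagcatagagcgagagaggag
Mgst1 (chr6:138140377-138140526, + strand): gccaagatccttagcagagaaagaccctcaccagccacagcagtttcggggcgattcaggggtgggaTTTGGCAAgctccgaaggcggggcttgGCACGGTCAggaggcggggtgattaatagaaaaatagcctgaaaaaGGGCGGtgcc
Cyp4b1 (chr4:115647722-115647871, - strand): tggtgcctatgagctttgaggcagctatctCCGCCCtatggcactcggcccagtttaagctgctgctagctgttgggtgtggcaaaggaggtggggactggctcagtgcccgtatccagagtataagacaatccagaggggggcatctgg
Cyp2j6 (chr4:96553652-96553801, - strand): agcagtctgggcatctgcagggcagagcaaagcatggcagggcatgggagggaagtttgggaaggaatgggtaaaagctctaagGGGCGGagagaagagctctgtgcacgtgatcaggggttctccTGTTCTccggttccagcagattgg
Cyp2e1 (chr7:140763669-140763818, + strand): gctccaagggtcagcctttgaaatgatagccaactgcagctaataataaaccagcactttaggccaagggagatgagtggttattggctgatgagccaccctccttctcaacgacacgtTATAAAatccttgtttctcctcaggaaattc
Over the 250 bases upstream, 62 of the 75 enzymes and 10 of the 13 called ones had a promoter in the RefSeq table. The GC box was found for 8 of these 10 and for 22 of the 62, against 33.0% of all 27025 promoters searched. The antioxidant response element was found for Gstm5 and Mgst1 among the 10 and for 4 of the 62, against 10.1% of all promoters. The C/EBP motif was found for Gstt1 and Mgst1 and for 11 of the 62, against 9.55%. The TATA box was found for none of the 10 but for 13 of the 62, against 13.0%, and the glucocorticoid receptor motif for 3 of the 10 and 14 of the 62, against 16.1%. In the stretches printed, the antioxidant response element of Gstm5 began 42 bases and that of Mgst1 56 bases before the start site, and the TATA box of Cyp2e1 began 31 bases before it. These matches describe letters in a window and not binding.

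In paracardial fat 13 of the 75 enzymes were lower and none higher, and 62 did not pass the test. Lower calls made up 2.91% of all genes tested and higher calls 6.25%, so 17.3% of the enzymes were called in the direction that was the rarer one over all genes. At an unadjusted p under 0.05 there were 27 enzymes, all lower, beside 2265 of all genes in either direction. The median difference over the 75 was -0.81, beside 0.13 over all genes, and 65 of the 75 enzymes (86.7%) had a negative difference, beside 39.4% of all genes. Without intra-abdominal array 1 the median of the enzymes was -0.37 and 60 were negative. The depots did not overlap, with paracardial fat the lower, for 26 enzymes (34.7%), beside 8.78% of all genes, and with paracardial fat the higher for 1 enzyme, Ces2f, beside 18.0% of all genes. Centring the arrays on their medians moved the median of all genes from 0.13 to -0.024 and that of the enzymes from -0.81 to -0.97. With centring 19 enzymes were called lower, beside 4.16% of all genes. Quantile normalization applied again gave 18 and cyclic loess 19 lower enzymes, with none higher in either, while the split of calls over all genes went from 581 higher and 270 lower to 436 and 474 and to 453 and 571.

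**Figure D1:**
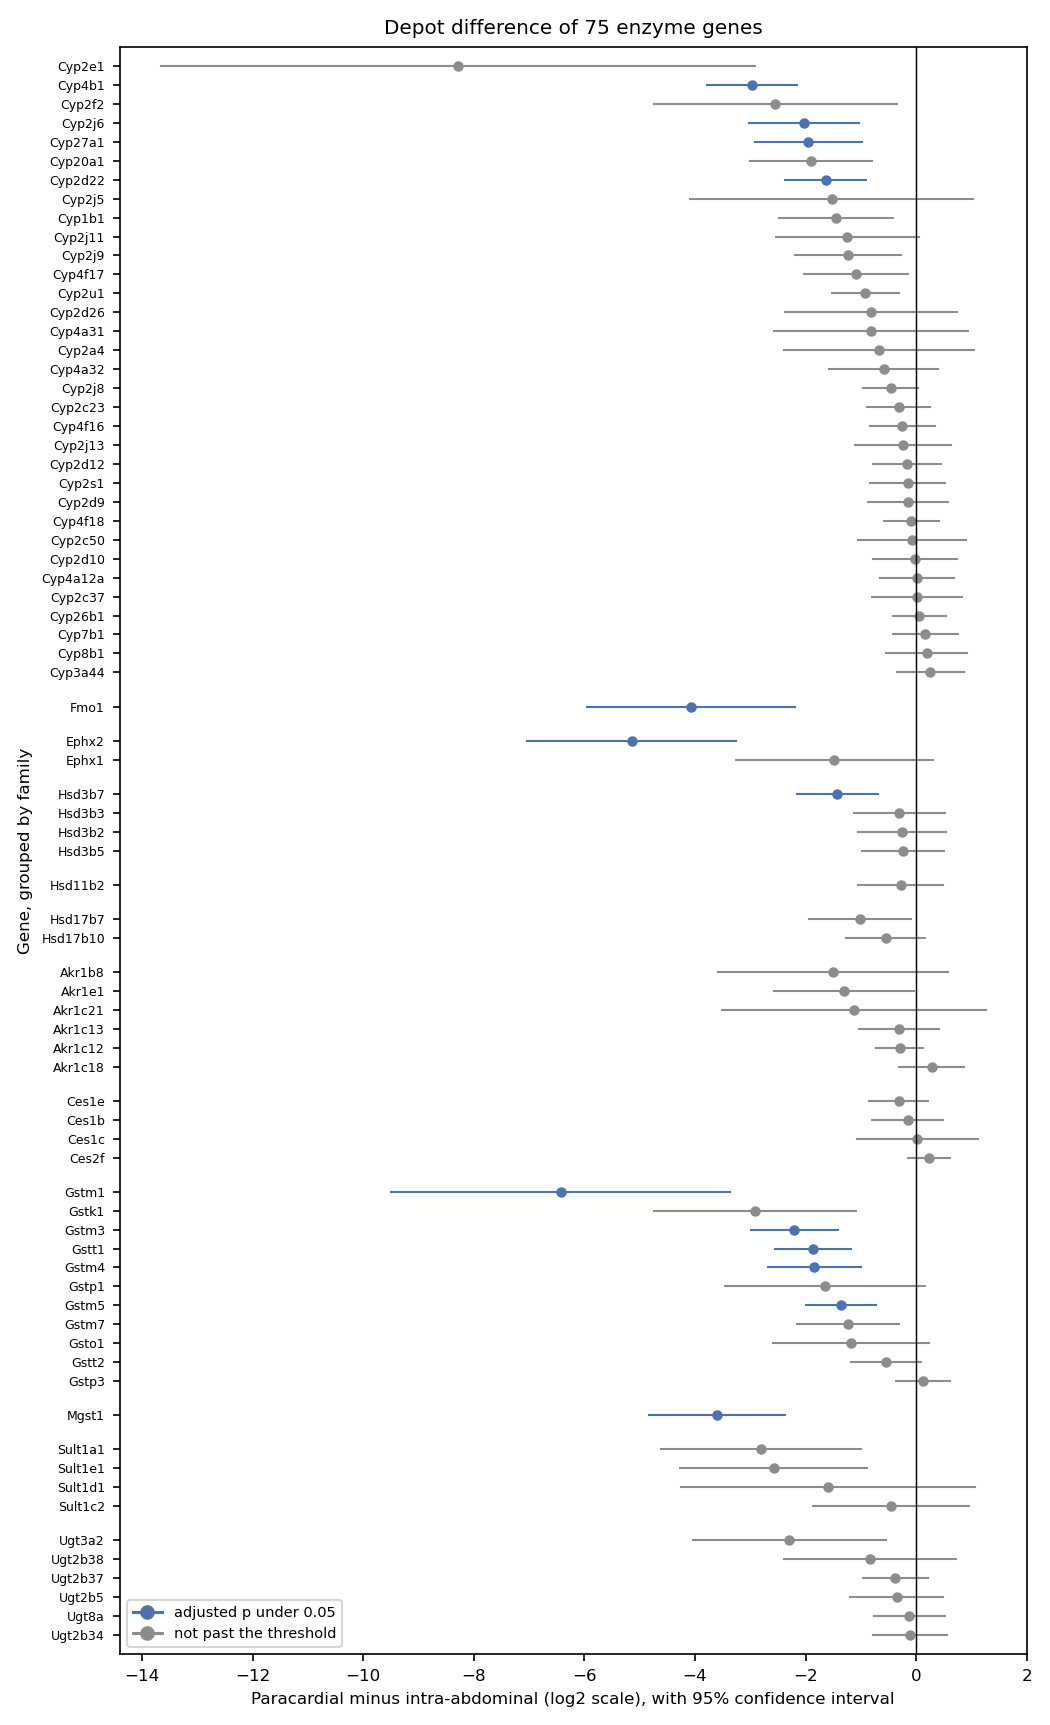
Depot difference of each of the 75 enzyme genes (x axis, paracardial minus intra-abdominal, log2 scale) with its 95% confidence interval from limma, grouped by family (y axis). The 13 genes past the threshold are in blue, all left of 0, and the positive differences reach 0.28 at most.

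The 13 calls were not equally firm. Cyp4b1 passed in all 7 fits that left out an array. Mgst1, Gstm3, Ephx2 and Gstt1 passed in 5 of the 7, and the other 8 in 1 to 3. Without paracardial array 1 only Cyp4b1 of the 13 passed, and the other 12 had adjusted p-values of 0.051 to 0.103. Without intra-abdominal array 2 only Cyp4b1 and Gstt1 passed, and the other 11 had 0.055 to 0.12. Without paracardial array 2 calls ended for 9 (0.051 to 0.097), without paracardial array 3 for 7 (0.053 to 0.085), without paracardial array 4 for 4 (0.052 to 0.061), without intra-abdominal array 1 for 3 (0.052 to 0.057) and without intra-abdominal array 3 for 2 (0.069 and 0.076). Without paracardial arrays 1 and 2 together none passed, with 14 enzymes at an unadjusted p under 0.05, beside 1751 of all genes. All 13 kept a negative difference in every one of these fits. On all 4 paracardial arrays 8 of the 13, namely Cyp27a1, Cyp2d22, Cyp2j6, Cyp4b1, Gstm3, Gstm5, Gstt1 and Hsd3b7, lay below the array's median, where signal over background is unknown, so the sizes of their differences are uncertain.

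**Figure D2:**
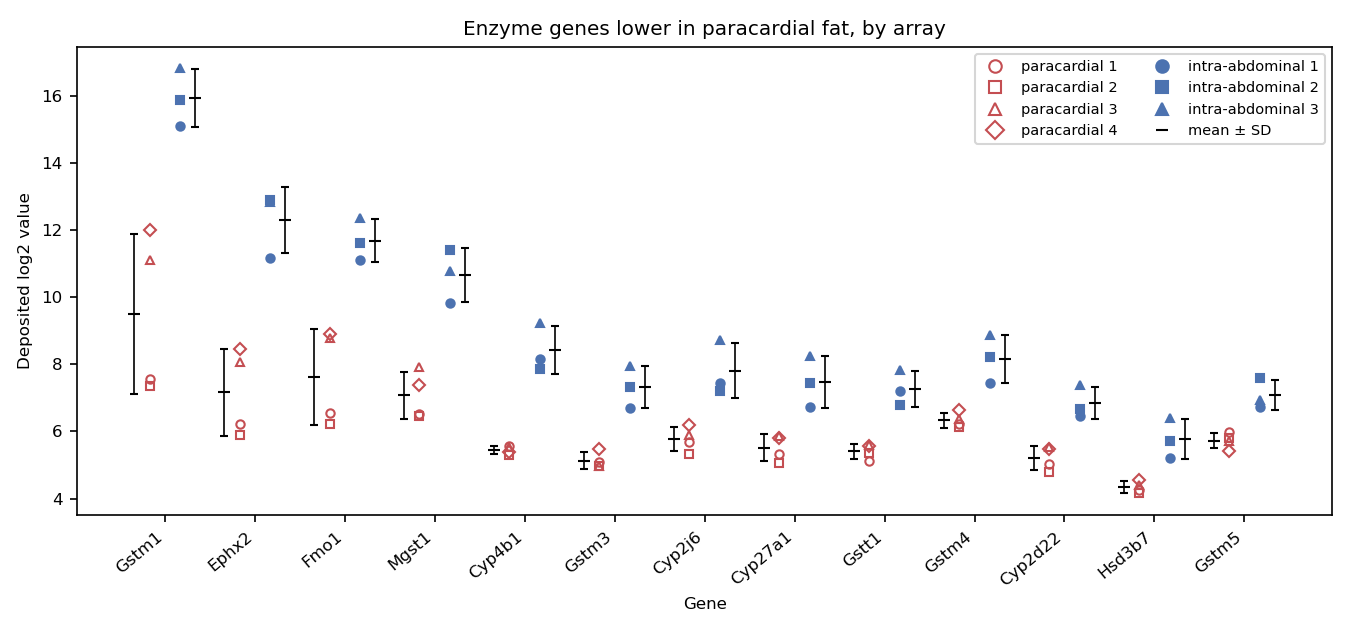
Deposited log2 value (y axis) on each array of the 13 enzyme genes lower in paracardial fat (x axis, by size of difference), with mean ± SD per depot in black. Paracardial points (open, red) lie below intra-abdominal points (filled, blue) for every gene. Within paracardial fat, arrays 3 and 4 lie above arrays 1 and 2 by the most in Gstm1, Fmo1 and Ephx2. They do so by less in Mgst1, Cyp27a1, Cyp2d22, Cyp2j6, Gstt1, Hsd3b7 and Gstm4, and not in Cyp4b1, Gstm3 and Gstm5.

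Among the oxidising enzymes, Cyp4b1 and Fmo1 were lower in paracardial fat. Cyp4b1 oxidises fatty acids and foreign compounds outside the liver. Its log2 value was 5.56, 5.29, 5.54 and 5.39 in paracardial and 8.16, 7.87 and 9.23 in intra-abdominal fat. The 4 paracardial arrays lay within 0.26 of each other and all intra-abdominal arrays far above them. The means were 5.45 ± 0.13 (SD, n = 4) against 8.42 ± 0.72 (SD, n = 3), and the difference was -2.97 ± 0.34 (standard error), with a 95% confidence interval of -3.78 to -2.16 and a limma adjusted p of 0.0089. It was -2.55 among the 5 arrays with the lower ceiling and -3.83 within the set of 2 arrays. Fmo1, which oxidises nitrogen and sulfur in drugs and endogenous amines, read 6.55, 6.22, 8.79 and 8.90 in paracardial and 11.11, 11.61 and 12.36 in intra-abdominal fat. Its depots did not overlap, but paracardial arrays 3 and 4 were at least 2.24 above arrays 1 and 2, and the median of the adipocyte markers was higher there too. The difference was -4.07 ± 0.79 (limma adjusted p = 0.027), and Fmo1 kept its call in 2 of the 7 left-out fits.

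Cyp2e1, which oxidises ethanol, acetone and small solvents, had the largest difference of the 75 enzymes without passing the test. Its log2 value was 6.56, 7.45, 15.77 and 12.80 in paracardial and 18.85, 18.97 and 18.98 in intra-abdominal fat. The intra-abdominal arrays lay within 0.12 of each other near the ceiling, while the paracardial arrays spread over 9.20 without reaching them. How far values so close to the ceiling are compressed is unknown, and a compressed value there would make the difference too small. The difference was -8.29 ± 2.25 with a 95% confidence interval of -13.66 to -2.91 (limma adjusted p = 0.070). On paracardial array 3, where Cyp2e1 was the highest of its depot, the 7 hepatocyte markers had a median of 7.01 against 4.21 to 4.98 on the other 6 arrays. Albumin, Alb, read 14.37 there against 4.77 to 8.73 elsewhere. Without that array the difference of Cyp2e1 was -9.99 and it passed (limma adjusted p = 0.044). Adipocyte markers were also higher on paracardial arrays 3 and 4 than on arrays 1 and 2, and the share of either cell type in the level of Cyp2e1 was not tested.

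Cyp2d22 and Cyp2j6 were lower as well. Cyp2d22, a P450 of the family that handles many drugs, read 5.02, 4.80, 5.53 and 5.47 in paracardial and 6.47, 6.66 and 7.39 in intra-abdominal fat, a difference of -1.63 ± 0.31 (limma adjusted p = 0.025). The other 4 Cyp2d genes measured did not pass, with differences of -0.81 to -0.020. P450 genes of one subfamily are close copies of each other, and how far their probes share signal is unknown here. Cyp20a1, a P450 with no settled substrate, and Cyp1b1, which oxidises estradiol and polycyclic hydrocarbons, had depots that did not overlap and did not pass. Their differences were -1.90 ± 0.46 (limma adjusted p = 0.053) and -1.45 ± 0.43 (0.092). Cyp1b1 read 6.38, 6.70, 7.43 and 7.74 in paracardial and 8.09, 8.26 and 9.19 in intra-abdominal fat. Cyp2u1, a fatty acid hydroxylase, also had depots that did not overlap, with -0.92 ± 0.26 (0.076). Cyp20a1 passed without intra-abdominal array 1 (0.038), and both Cyp20a1 and Cyp1b1 passed under each of the 3 other scalings.

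Enzymes of fatty acid epoxides, which P450s of the Cyp2j family make and soluble epoxide hydrolase opens, included 2 of the calls. Ephx2, the soluble epoxide hydrolase, read 6.21, 5.91, 8.08 and 8.46 in paracardial and 11.18, 12.91 and 12.83 in intra-abdominal fat. Every intra-abdominal value exceeded the highest paracardial value by at least 2.72. The difference was -5.14 ± 0.79, with a 95% confidence interval of -7.03 to -3.25 (limma adjusted p = 0.016). Its microsomal relative Ephx1, which detoxifies foreign epoxides, read 8.48, 8.09, 9.49 and 9.49 in paracardial and 9.49, 9.49 and 12.11 in intra-abdominal fat. The same value of 9.49 stood on 4 of the 7 arrays and the depots met there, with a difference of -1.48 ± 0.75 (0.293) that was -0.60 without intra-abdominal array 3. Such ties also occurred in other enzymes without a call, on 4 arrays in Cyp4a12a and on 3 in Akr1c12 and Akr1c13. How they arose is unknown. Cyp2j6 read 5.68, 5.32, 5.91 and 6.18 in paracardial and 7.45, 7.22 and 8.74 in intra-abdominal fat, a difference of -2.03 ± 0.42 (limma adjusted p = 0.032), and kept its call in 1 of the 7 left-out fits.

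The 6 Cyp2j genes measured, which lie on chromosome 4, did not follow one array pattern. Cyp2j6 and Cyp2j9 were highest on intra-abdominal array 3, at 8.74 and 7.47. Cyp2j5 and Cyp2j11 were highest on intra-abdominal array 1, at 9.63 and 6.91, and on array 3 they read 4.99 and 4.66, inside the paracardial range. Cyp2j8 and Cyp2j13 stayed below the array median on all 7 arrays. The differences of the 5 other than Cyp2j6 ran from -1.53 to -0.23 and none passed. Without intra-abdominal array 1 that of Cyp2j11 went from -1.25 to -0.71.

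**Figure D3:**
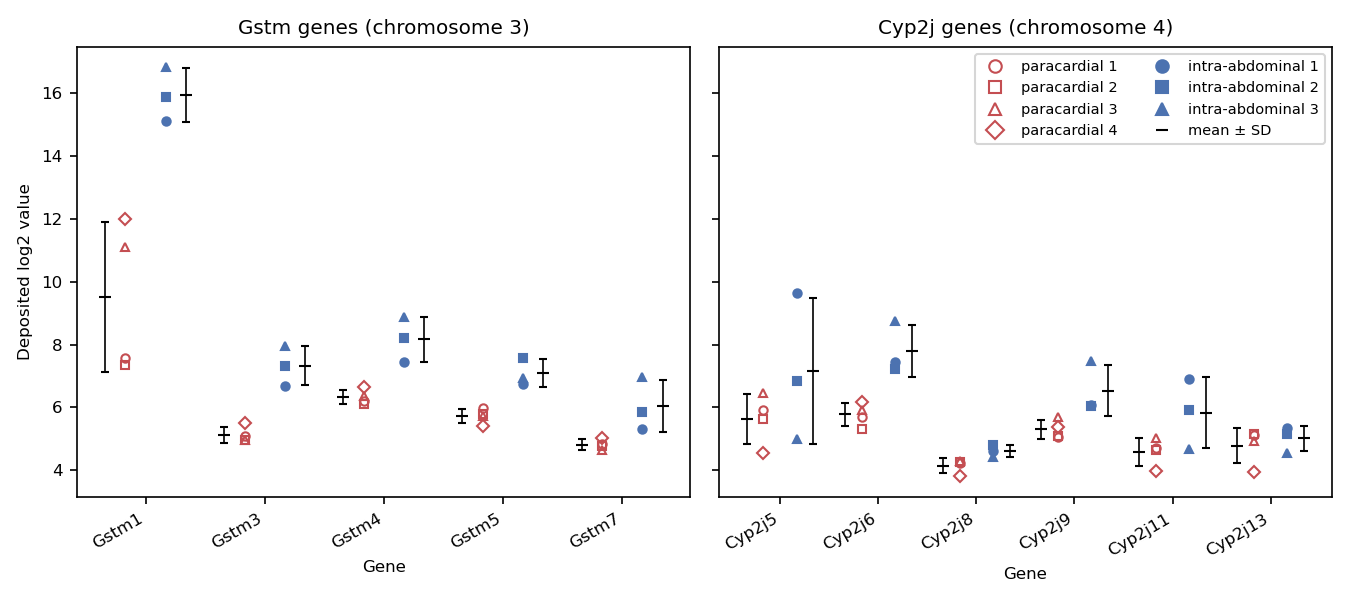
Deposited log2 values (y axis) by array of the 5 Gstm genes (left) and the 6 Cyp2j genes (right) measured, with mean ± SD per depot in black. All 5 Gstm genes separate the depots, while among Cyp2j genes Cyp2j5 and Cyp2j11 are highest on intra-abdominal array 1 and Cyp2j6 and Cyp2j9 on array 3.

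Among sterol and steroid enzymes, the 2 calls were both enzymes of bile acid synthesis. Cyp27a1, the mitochondrial sterol 27-hydroxylase that makes an oxysterol and starts the acidic route of bile acid synthesis, read 5.34, 5.06, 5.87 and 5.81 in paracardial and 6.72, 7.44 and 8.25 in intra-abdominal fat. Hsd3b7, which oxidises the sterol ring in the same pathway, read 4.25, 4.15, 4.42 and 4.55 in paracardial and 5.21, 5.70 and 6.41 in intra-abdominal fat. In both genes the depots did not overlap, and the differences were -1.95 ± 0.41 (limma adjusted p = 0.033) and -1.43 ± 0.31 (0.036). On paracardial arrays 1 to 3 Hsd3b7 lay below the array's 5th percentile (4.43, 4.38 and 4.43), so the size of its difference is set by values at the low end of the scale. Each kept its call in 2 of the 7 left-out fits. The next enzyme of the route, the oxysterol hydroxylase Cyp7b1, differed by 0.16 ± 0.25 (0.739), and the sterol 12-hydroxylase Cyp8b1 of the liver by 0.19 ± 0.31 (0.757). Both of these stayed below the array median on all arrays.

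Enzymes that act on steroid hormones gave no call. Hsd17b7, which converts estrone to estradiol and serves cholesterol synthesis, differed by -1.02 ± 0.39 (limma adjusted p = 0.164), and the mitochondrial Hsd17b10 by -0.55 ± 0.30 (0.333). Without intra-abdominal array 3 these were -0.63 and -0.28. Hsd11b2, which inactivates corticosterone in aldosterone target cells, read 4.59, 5.28, 4.26 and 4.22 in paracardial and 5.11, 4.48 and 5.01 in intra-abdominal fat. That was below every array's median in both depots, with a difference of -0.28 ± 0.32 (0.658). Hsd3b2, Hsd3b3 and Hsd3b5, isoforms of steroid-making tissues, kidney and liver, also stayed below the array median on all arrays, with differences of -0.30 to -0.24. Akr1c18, which inactivates progesterone, had the largest positive difference of the 75, 0.28 ± 0.25 (0.551), at values of 5.31, 5.51, 4.93 and 4.65 on paracardial and 4.87, 4.79 and 4.80 on intra-abdominal arrays. The other 5 aldo-keto reductases had negative differences, from -1.50 for Akr1b8 to -0.29 for Akr1c12, without a call. Akr1b8 rested on 1 array, at 8.95 on intra-abdominal array 3 against 4.71 to 5.68 on the other 6, and its difference without that array was -0.36. Hsd11b1, Cyp11a1, Cyp17a1, Cyp19a1, Hsd3b1 and Akr1b7 were not analysed here.

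Glutathione transferases held the largest share of calls among families with more than 2 genes, 5 of 11, and Mgst1 added another. Of the 5 mu class genes measured, neighbours on chromosome 3, 4 were called lower and Gstm7 was not, and in all 5 the depots did not overlap. Gstm1, the main mu class enzyme of mouse liver, read 7.57, 7.35, 11.10 and 12.00 in paracardial and 15.11, 15.87 and 16.82 in intra-abdominal fat. Paracardial arrays 3 and 4 stood at least 3.53 above arrays 1 and 2 and still at least 3.12 below the lowest intra-abdominal array. Its difference was -6.43 ± 1.28, with a 95% confidence interval of -9.50 to -3.37 (limma adjusted p = 0.029), and the call held in 1 of the 7 left-out fits, the one without paracardial array 4. Gstm3 read 5.08, 4.96, 4.97 and 5.49 in paracardial and 6.70, 7.33 and 7.95 in intra-abdominal fat, with a difference of -2.20 ± 0.33 (0.015). Here the 4 paracardial arrays lay within 0.53 of each other, without the gap between arrays 1 and 2 and arrays 3 and 4 seen in Gstm1. Gstm4 differed by -1.84 ± 0.35 (0.027), Gstm5 by -1.36 ± 0.26 (0.027) and Gstm7 by -1.23 ± 0.39 (0.104). Mu class genes are near-identical copies over parts of their length, so the value of each may hold signal of another and is uncertain. Their upstream stretches printed above differ, with GC boxes before Gstm3, Gstm4 and Gstm5 and none in that of Gstm1.

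Mgst1, a membrane-bound transferase that also reduces lipid peroxides, read 6.53, 6.47, 7.93 and 7.39 in paracardial and 9.82, 11.41 and 10.79 in intra-abdominal fat. The lowest intra-abdominal value was 1.89 above the highest paracardial one, and the difference was -3.59 ± 0.52 with a 95% confidence interval of -4.82 to -2.36 (limma adjusted p = 0.014). Gstt1, the theta class enzyme that conjugates small halogenated compounds, read 5.12, 5.37, 5.60 and 5.57 in paracardial and 7.20, 6.78 and 7.84 in intra-abdominal fat, a difference of -1.86 ± 0.29 (0.017), and its relative Gstt2 differed by -0.54 ± 0.27 (0.281). The kappa class gene Gstk1, of mitochondria and peroxisomes, read 6.28, 5.99, 6.83 and 7.61 in paracardial and 8.0, 9.63 and 11.14 in intra-abdominal fat. Its depots did not overlap and its difference of -2.91 ± 0.76 did not pass (0.064), though it passed without intra-abdominal array 1 (0.031). Gstp1, the pi class enzyme of most non-liver cells, read 9.16, 9.16, 10.52 and 11.71 in paracardial and 10.84, 11.77 and 12.74 in intra-abdominal fat. Its depots overlapped, since paracardial array 4 exceeded intra-abdominal array 1, and the difference was -1.64 ± 0.76 (0.249). Gsto1 differed by -1.17 ± 0.59 (0.294) and Gstp3 by 0.12 ± 0.20 (0.775), and Gsto1 was at -0.48 without intra-abdominal array 3.

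Sulfotransferases, glucuronosyltransferases and carboxylesterases gave no call. Sult1e1, the estrogen sulfotransferase, read 5.30, 4.94, 7.86 and 5.70 in paracardial and 8.19, 8.97 and 8.42 in intra-abdominal fat, a difference of -2.58 ± 0.71 (limma adjusted p = 0.073). Its depots did not overlap, and without paracardial array 3, its highest paracardial value, the difference was -3.21 and it passed (0.026). Sult1a1, the phenol sulfotransferase, read 5.66, 5.36, 7.41 and 7.15 in paracardial and 7.88, 9.40 and 10.33 in intra-abdominal fat, a difference of -2.81 ± 0.76 (0.069). It passed without intra-abdominal array 1, at -3.47 (0.048). All 6 Ugt genes had negative differences, from -2.29 for Ugt3a2 to -0.11 for Ugt2b34, and 4 of them stayed below the array median on all arrays. Ugt2b38 was highest on intra-abdominal array 1, at 6.77 against 3.94 to 6.03 elsewhere, and its difference of -0.84 was -0.29 without that array. All 4 carboxylesterases were below the array median throughout, with differences of -0.32 to 0.24. Ces2f, the one enzyme with all paracardial arrays above, read 5.07, 5.05, 4.93 and 5.14 in paracardial and 4.86, 4.74 and 4.83 in intra-abdominal fat, a difference of 0.24 ± 0.16 (0.436). Ces1c, an esterase that the liver secretes, stood out on paracardial array 3 at 6.22, against 4.35 to 5.17 on the other 6 arrays, the array on which Alb was also highest. Ces1d, the triglyceride hydrolase of adipocytes, was not analysed here.

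A group of 9 enzymes stood apart on a single intra-abdominal array. Akr1c21, Cyp2a4, Cyp2d26, Cyp2f2, Cyp2j5, Cyp4a31, Sult1c2, Sult1d1 and Ugt3a2 were at least 1 higher on intra-abdominal array 1 than on each of the other 6 arrays. That is 12.0% of the 75 enzymes, beside 1.04% of all genes, and the group was picked on these values. Sult1d1, a sulfotransferase of catecholamines, read 5.59, 5.18, 5.88 and 3.70 in paracardial and 9.05, 6.64 and 4.35 in intra-abdominal fat. Cyp2j5, the P450 epoxygenase of the proximal tubule of the kidney, read 5.90, 5.62, 6.46 and 4.54 in paracardial and 9.63, 6.85 and 4.99 in intra-abdominal fat. In both, intra-abdominal array 2 came second and array 3 lay inside the paracardial range. Akr1c21, a hydroxysteroid dehydrogenase of kidney, read 5.83, 5.31, 5.41 and 4.05 in paracardial and 8.49, 6.19 and 4.15 in intra-abdominal fat. Ugt3a2, a glycosyltransferase, read 5.37, 4.80, 6.10 and 4.79 in paracardial and 9.24, 7.18 and 6.25 in intra-abdominal fat, and it was the one gene of the 9 whose depots did not overlap (difference -2.29 ± 0.73, limma adjusted p = 0.108).

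The median of kidney tubule markers followed the same arrays. The list, added after the enzyme values were seen, had 14 of 20 genes measured and none called, with array medians of 5.32, 5.16, 5.38 and 4.47 in paracardial fat and 6.99, 5.79 and 4.61 in intra-abdominal fat. Most of its genes were highest on intra-abdominal array 1, but not all clearly so. Slc7a13 was highest on intra-abdominal array 2, at 4.69 against 4.58 on array 1. Slc22a6 read 5.32 on intra-abdominal array 1 and 5.27 on paracardial array 1. The phosphate transporter Slc34a1 of the proximal tubule read 6.38, 6.43, 7.51 and 4.96 in paracardial and 12.52, 8.71 and 5.67 in intra-abdominal fat, and the androgen-regulated kidney protein gene Kap read 9.70, 7.33, 11.57 and 5.03 in paracardial and 16.74, 13.72 and 4.39 in intra-abdominal fat. The salt transporters Slc12a1 and Slc12a3 of later tubule segments read 9.44 and 9.46 on intra-abdominal array 1, against at most 6.46 and 6.63 elsewhere. Without that array the difference went from -1.53 to -0.29 for Cyp2j5, from -1.59 to -0.41 for Sult1d1, from -1.13 to -0.022 for Akr1c21, from -0.81 to -0.13 for Cyp2d26, from -2.29 to -1.45 for Ugt3a2 and from -2.54 to -1.69 for Cyp2f2. It turned to 0.066 for Cyp4a31, 0.068 for Cyp2a4 and 0.24 for Sult1c2. These enzymes were picked for standing highest on that array, so leaving it out had to raise each difference. Without that array 13 enzymes were called lower, 10 of them among the original 13, beside 2.95% of all genes called lower. Cyp2f2, which read 10.42, 9.29 and 6.41 on the intra-abdominal arrays, passed when array 3 was left out, with -3.69 (limma adjusted p = 0.012). The part of kidney RNA in these enzyme values was not tested.

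**Figure D4:**
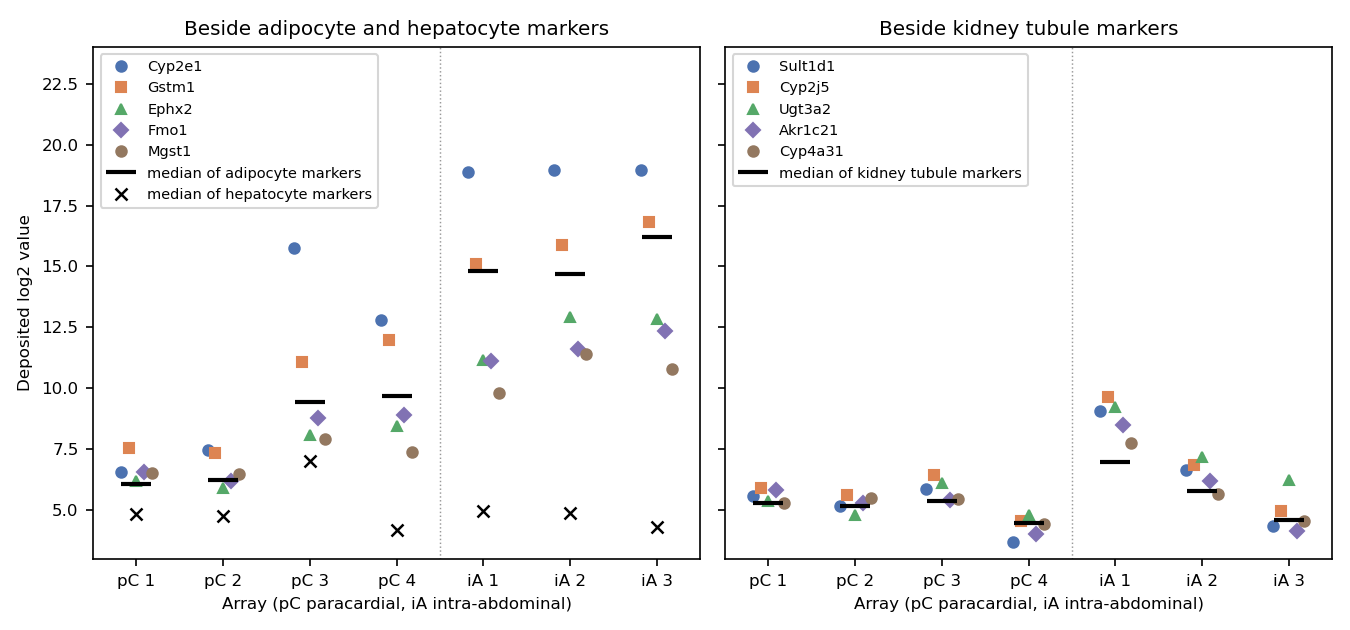
Deposited log2 values (y axis) on the 7 arrays (x axis) of 5 enzymes with large differences beside the medians of adipocyte and hepatocyte markers (left), and of 5 enzymes highest on intra-abdominal array 1 beside the median of kidney tubule markers (right). The enzymes on the left are high on all 3 intra-abdominal arrays and rise on paracardial arrays 3 and 4 with the adipocyte median, while those on the right peak on intra-abdominal array 1 with the kidney median.

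Other enzymes stood apart on intra-abdominal array 3. Akr1b8, Akr1e1, Cyp2j6, Cyp2j9, Cyp4b1, Cyp4f17, Ephx1, Gstk1, Gstm7, Gsto1 and Hsd17b7 were at least 1 higher on intra-abdominal array 3 than on each other array, 11 enzymes or 14.7%, beside 7.05% of all genes. The median of the 7 macrophage markers was also highest there, at 11.80 against 6.82 to 8.84 on the other arrays. So were those of the adipocyte markers and of the 3 endothelial markers (12.79 against 5.44 to 10.19). The 2 fibroblast markers were not alike. Lum read 12.02 there against 6.05 to 8.49 elsewhere, while Pi16 read 5.05 there and was highest on paracardial array 4 (5.06). Without that array the difference went from -1.30 to -0.72 for Akr1e1, from -1.24 to -0.77 for Cyp2j9, from -1.09 to -0.64 for Cyp4f17 and from -1.23 to -0.78 for Gstm7. These enzymes were picked for standing highest on that array, so leaving it out had to make each difference less negative. The part of these cell markers in the enzyme values was not tested.

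On all 7 arrays 29 of the 75 enzymes lay below the array's median, as did 3021 of all 9294 genes. No detection call is at hand there, and none of the 29 enzymes passed. They included all 4 carboxylesterases, the 3 Cyp2c genes, Cyp3a44, Cyp4a12a, Cyp7b1, Cyp8b1, Cyp26b1, Hsd11b2 and 3 of the 4 Hsd3b genes, many of which are best known from liver.

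Genes that supply or regulate these enzymes were measured in part. Of the redox partners, 3 of 12 were measured and 2 were lower, the NADPH source Idh1 (-2.42 ± 0.44, limma adjusted p = 0.023) and the cytochrome b5 gene Cyb5b (-2.51 ± 0.55, 0.038), while malic enzyme Me1 had a difference of -5.05 ± 1.43 (0.079). Of conjugation partners and glutathione genes 11 of 28 were measured and 3 were lower. They were the histamine methyltransferase Hnmt (-3.21 ± 0.53, 0.018), the sulfatase Arsb (-2.01 ± 0.33, 0.019) and the amine methyltransferase Inmt (-1.45 ± 0.33, 0.042). The glutathione synthesis genes Gclc (0.61 ± 0.22, 0.151) and Gss (-0.15 ± 0.20, 0.695) and the reductase Gsr (0.28 ± 0.36, 0.693) did not pass, and neither did the peroxidase Gpx1 (-2.73 ± 0.82, 0.094). Of 3 transporters measured from 15, the organic anion transporter Slco2b1 was lower (-1.55 ± 0.36, 0.048) and the efflux pump Abcc3 did not pass (-0.37 ± 0.28, 0.477). The calls of Cyb5b, Hnmt and Slco2b1 were not firm either. They ended in each fit that left out paracardial array 1, 2 or 3 or intra-abdominal array 2. For Idh1, Arsb and Inmt the fits with an array left out are not given here.

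No receptor or sensor gene was called. Of 16 genes of the xenobiotic receptors and the NRF2 pathway 2 were measured. The quinone reductase Nqo1, a standard NRF2 target, read 6.28, 6.55, 7.06 and 7.99 in paracardial and 5.46, 5.0 and 5.50 in intra-abdominal fat, so all paracardial arrays lay above all intra-abdominal ones, with a difference of 1.65 ± 0.43 (limma adjusted p = 0.062). Of 25 steroid receptors and regulators 6 were measured and none passed, with differences from -1.84 for the cholesterol-binding protein gene Tspo to 1.55 for the nuclear receptor Nr4a1.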

How the data were processed

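The log2 values, 1 for each probe on each array, are those the authors deposited. RMA and Affymetrix Expression Console are the tools named in the submitters' processing notes, while versions, background correction and build were not given in the sources used here. That the scale is log2 was taken from the range of the values, and its centring and ceiling are unexplained. Precision is limited by the number of arrays.

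Of 11949 probes, 9352 had 1 gene symbol in the platform annotation, 522 had several and 2075 no symbol. Entrez identifiers, used to update symbols, matched the RefSeq table (assembly GRCm38.p6, for names) for 5789 probes and changed 188. The probe with the highest mean was kept for each of 52 genes with more than 1, and each of the 75 enzymes had 1 probe. Another 9 probes with several symbols hold an enzyme symbol and were left out of tests. No filter on low values was applied.

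The depot difference was fitted in R 4.3.3 by limma 3.58.1 (functions lmFit and eBayes, two-sided test, 5 residual and 1.68 prior degrees of freedom), with Benjamini-Hochberg adjustment over 9294 genes. The script was tested on simulated data. Python 3.11.15 with pandas 2.3.3, numpy 2.4.6 and matplotlib 3.10.9 did the rest. The 19 alternatives were 2 filters, 3 scalings, trend with robust fitting, array weights, 2 blocks, 2 subsets of arrays, the mean over probes and 7 fits each leaving out an array.

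The enzymes and lists were chosen with earlier results of these data known. The genes named by rule were every called enzyme with depots that did not overlap, the largest of each family, 13 enzymes known from fat or steroid synthesis where measured, and the 2 nearest the threshold on each side, 23 in all, with the 2 largest of each pathway list. Another 35 enzymes, Alb, Arsb, Inmt, Gclc, Gss, Gsr, Idh1 and the kidney genes were named after their values were seen.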

Additional observations from a re-analysis of the deposited data

Results flagged for a closer look

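Among the 4 paracardial arrays, the lowest value of Cyp2j8 was far from the others, at 3.81 on paracardial array 4 (3.8078 before rounding) against 4.23, 4.25 and 4.30. Ugt2b34, a glucuronosyltransferase, was also lowest there, at 3.44 against 4.07 to 4.15. Both genes lay below the 5th percentile of each paracardial array (4.43, 4.38, 4.43 and 3.99), which was itself lowest on array 4. Rxrb, a retinoid X receptor gene, was highest there, at 5.82, where the other 3 arrays held the same value of 5.40. Dixon's test was applied to 78 genes and marker medians in this depot, and chance gives about 1 in 20 such results.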

How the results depend on the processing

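The count of enzymes lower in paracardial fat was 13 as reported and 1 to 13 over the 7 fits that left out an array. It was 36 with array weights, whose fit did not fully converge, 22 when the array set entered as a block, 0 with the replicate number as a block (26 at an unadjusted p under 0.05 in limma) and 0 without paracardial arrays 1 and 2 together (14 at an unadjusted p under 0.05). The count higher was 0 in all fits except array weights, which gave 2 (Akr1c18 and Ces2f). The number of all genes past the threshold was 851 as reported, 185 to 833 with an array left out, 3614 with array weights, 1654 when the array set was a block, 0 with the replicate block (2134 at an unadjusted p under 0.05) and 1 without paracardial arrays 1 and 2. In the replicate block fit paracardial array 4, which has no partner, adds nothing to the difference. The labels do not name the animals, and the numbers were not taken as pairs. Deviations of same-numbered arrays from their depot means had correlations of 0.048, 0.047 and -0.50 for numbers 1 to 3. These correlations cannot decide whether the numbers are pairs. The depot means rest on only 4 and 3 arrays, and number 3 joins arrays of different ceilings. Within the 5 arrays of the lower ceiling 9 enzymes were lower, 8 of them among the original 13, beside 3.4% of all genes called lower.

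Among the enzymes named, signs turned for 12 of those without a call and for none of the 13 called. Ces1c went from 0.018 to -0.041 with quantile normalization, -0.14 with centring, -0.0049 with cyclic loess, -0.26 with array weights and -0.032 when the array set entered as a block, and ranged from -0.39 to 0.24 with an array left out. With array weights Hsd11b2 turned to 0.18, Cyp7b1 to -0.012, Gstp3 to -0.033 and Cyp2d10 to 0.065. Within the 5 arrays of the lower ceiling Gstp3 was -0.060 and Cyp2d10 0.11, and with centring Gstp3 was -0.039. With the replicate block Cyp2j13 was 0.046, Ugt2b34 0.051 and Cyp2d10 0.21. Cyp8b1 turned to -0.12 and Akr1c18 to -0.030 without paracardial arrays 1 and 2. With an array left out, Cyp4a31 ranged from -1.52 to 0.066, Cyp2a4 from -1.41 to 0.068, Sult1c2 from -0.94 to 0.24, Cyp8b1 from -0.014 to 0.41, Cyp2j13 from -0.46 to 0.046, Ugt2b34 from -0.33 to 0.053 and Cyp2d10 from -0.22 to 0.21. Beyond fewer arrays or genes entering a fit, the cause was not tested. Signal over background is unknown, which limits the 29 enzymes below the array medians and the 8 called enzymes below them on all paracardial arrays.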

Other observations

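Probes annotated to several symbols add to the picture of these families, as values without a test. The probe of Gstp2 and a Gstp pseudogene read 7.45, 7.28, 8.24 and 8.76 in paracardial and 8.69, 9.42 and 10.14 in intra-abdominal fat. As for Gstp1, paracardial array 4 lay between intra-abdominal arrays 1 and 2. The probe of Klkb1 and Cyp4v3, the second a fatty acid hydroxylase, read 5.57, 5.49, 5.90 and 5.48 on paracardial and 6.85, 7.12 and 6.90 on intra-abdominal arrays, with no overlap. Probes of Cyp4a10 with Cyp4a31, of Cyp2a5 with Cyp2a4, of Hsd3b4 with 2 gene models and of Gsta1 with Gm3776 were highest on intra-abdominal array 1, at 7.86, 7.69, 7.34 and 6.65, and read 4.64, 4.99, 4.15 and 4.84 on intra-abdominal array 3. The pair of Cyp3a41 probes stayed between 4.24 and 5.39 on all arrays, and the probe of Cyp2d11 with a miRNA gene between 4.94 and 5.48.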
